A study of Homo sapiens with 6 samples.

Results

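Genes used to mark neurons were examined in a pair of HEK293T lines, an established line from human embryonic kidney, here grown in medium with serum. The set was a fixed list of 33 symbols: structural proteins of the axon and dendrite, synaptic proteins, adhesion molecules and 3 transcription factors, among them the repressor REST. Each symbol was matched through GENCODE 29 to an Ensembl gene, and all 33 were found among the 20169 gene rows of the deposited count table. Each line holds a landing pad, an engineered locus that accepts inserted DNA, with the PGK promoter in one line and the CAG promoter in the other. PGK is the promoter of a glycolytic kinase gene, and CAG is a strong composite promoter. Polyadenylated RNA was sequenced in 3 PGK and 3 CAG libraries of 21896246 to 23442542 counts each. Both lines are monoclonal by the series description, with 1 line known for each promoter, and effects of promoter and clone cannot be told apart in any value here. Nothing states that replicate libraries came from separate cultures, and p-values then measure only the spread between these libraries, which may be technical.

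Neurons are built around stable microtubules, a growth cone that steers the axon, and synapses where vesicles fuse with the membrane through SNARE proteins. In cells other than neurons, REST binds a DNA element called RE1 near many of these genes and recruits histone deacetylases and the demethylase KDM1A to keep them low. HEK293 cells are known for transcribing a number of neuronal genes although they were derived from embryonic kidney.

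The 33 genes did not move together between the lines. Levels are CPM, the depth-scaled read counts, on the library size normalised by TMM, and fold changes are CAG over PGK from the quasi-likelihood test of edgeR, adjusted by Benjamini-Hochberg over the 13103 genes that passed the low-count filter. A gene was called when its adjusted p was under 0.05. Of the 33 genes 27 passed the filter, and of these 13 were higher and 9 lower in the CAG line while 5 were not called. Of all tested genes 62.0% were called, 31.6% higher and 30.4% lower, against 81.5% of the tested neuronal genes. MAP2 and SYT11 passed the filter only through their CAG libraries, which selects for a difference, so their calls are not independent support. The median log2 fold change was 0.21 over the tested neuronal genes and -0.00 over all tested genes. The median absolute log2 fold change was 0.48 against 0.26. Changes of at least 2-fold were called for 4 neuronal genes that were higher (MAP2, UCHL1, SYT11 and RTN1) and 3 that were lower (DPYSL3, GNAO1 and GRIN2D), or 25.9% of those tested, against 8.62% of all tested genes (5.73% higher and 2.88% lower). Without genes that passed the filter through 1 line only, changes of at least 2-fold were called for 5 of 25 neuronal genes and for 6.71% of all tested genes. The called shares were then 80.0% and 61.2%, and the median absolute log2 fold changes 0.41 and 0.25. The list was chosen with earlier results of these data known, so these shares cannot show that neuronal genes differ more than other genes. The CAG libraries all lay above the PGK libraries for 12 tested neuronal genes (33.5% of all tested genes) and all below for 9 (32.0% of all tested genes).

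**Figure D1:**
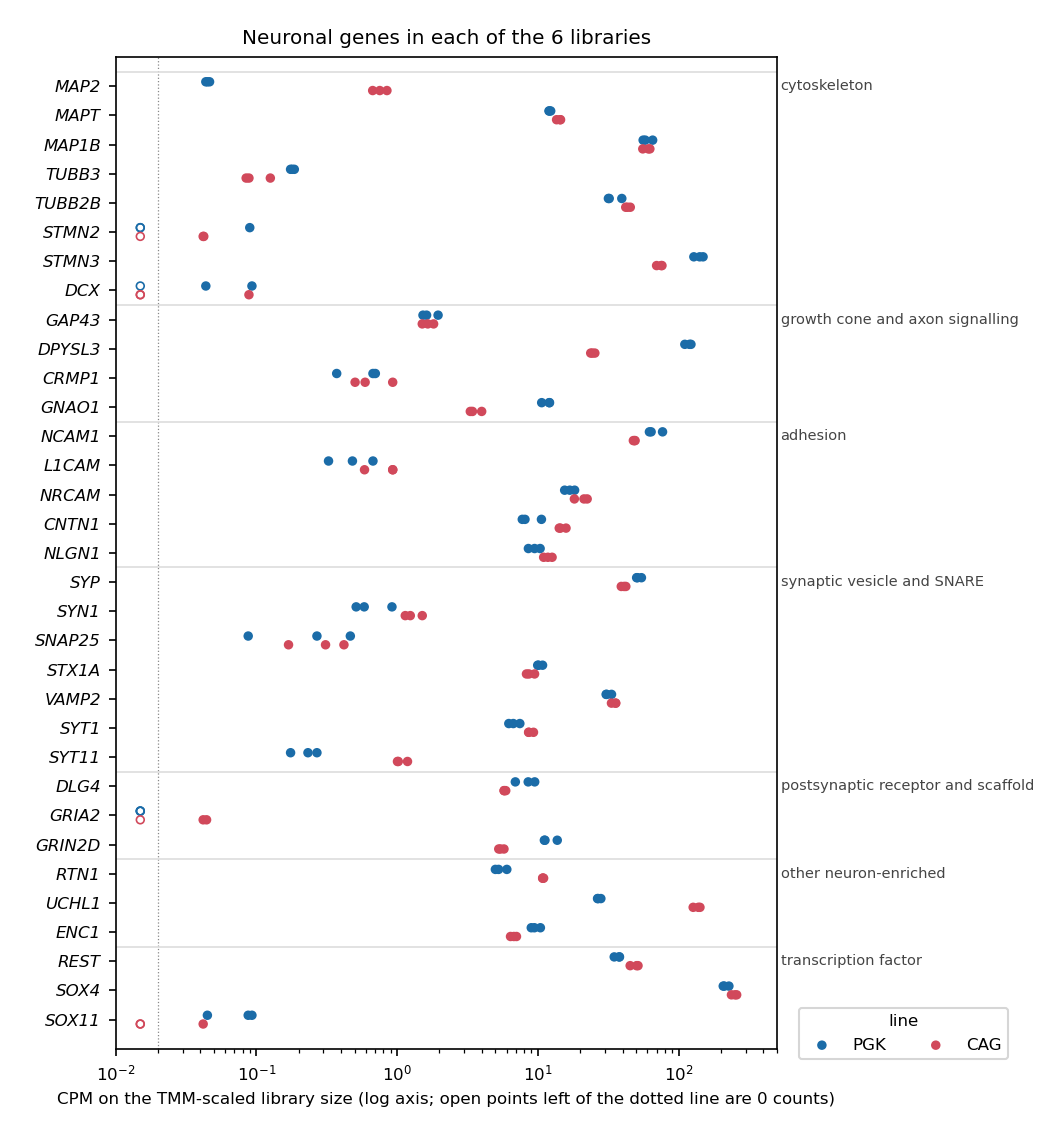
CPM of the 33 neuronal genes on a log axis, ordered by role, with a point for each of the 3 PGK (blue) and 3 CAG (red) libraries; open points left of the dotted line are libraries with 0 counts. DPYSL3 and GNAO1 lie clearly lower in CAG, UCHL1, MAP2 and SYT11 clearly higher, and STMN2, DCX, GRIA2 and SOX11 hold at most 2 counts in any library.

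Several of the best known neuron markers were under 1 CPM in both lines, while others were well above it. Mean levels in PGK and CAG were 51.9 and 40.8 CPM for SYP, 12.1 and 14.2 CPM for MAPT, and 6.79 and 8.85 CPM for SYT1. In both lines 12 genes had more than 10 CPM and 9 had less than 1 CPM. Those 9 were MAP2, TUBB3, STMN2, DCX, CRMP1, L1CAM, SNAP25, GRIA2 and SOX11. They include markers of mature dendrites, of migrating young neurons and of synapses, and the value of TUBB3 is uncertain. In bulk RNA a few cells with much RNA of a gene and many cells with little cannot be told apart.

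REST (ENSG00000084093, chromosome 4), the repressor with a role opposite to the other genes, was expressed in both lines. Its level was 34.9, 37.8 and 38.0 CPM in the PGK libraries and 45.3, 51.5 and 50.3 CPM in the CAG libraries. The lines did not overlap, with means of 36.9 ± 1.75 and 49.0 ± 3.29 CPM (SD, n = 3). The log2 fold change was 0.41 (SE 0.06), or 1.33-fold higher in CAG, with an edgeR adjusted p of 1.67e-05. The 50 tested genes around REST on its chromosome had a median log2 fold change of 0.44, close to that of REST, and the part of this neighbourhood in the REST value was not tested. REST shares 0.3% of its exon bases with NOA1 on the other strand.

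The RE1 element was searched in RefSeq promoter windows (build GRCh38.p14), which run from 250 bases before to 50 after a gene's start. The 21-letter RE1 element, with 2 free letters between its parts, was searched on both strands with at most 4 mismatches over its 19 fixed letters, and the exact match in GRIA2 shown here spells it out. Windows were found for 27 of the 33 genes, and none for ENC1, MAPT, NCAM1, SNAP25, SOX11 and STMN2. Of these 27 genes 2 held the element in a window, GRIA2 and SYN1, against 0.381% of all 27305 genes searched. Sequence outside the windows was not searched, so the other genes may hold the element elsewhere. The closest other windows, of STMN3, TUBB2B and TUBB3, had 5 mismatches. Both sites are shown because they were the only matches among these genes, and the levels of the genes next to them are given after the sequences. Capitals mark letters that match the element, written 5′ to 3′ on the minus strand of the genome.
GRIA2, chr4:157220388-157220408: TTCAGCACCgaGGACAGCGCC
SYN1, chrX:47620070-47620090: TTCAGCACCgcGGACAGtGCC
The GRIA2 site had 0 mismatches and its centre lay 221 bases before the start of the gene. The SYN1 site had 1 mismatch, in its right part, with its centre 223 bases before the start. A match of letters is a description and not a site shown to be bound.

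GRIA2, which encodes a subunit of the AMPA glutamate receptor, had 0 counts in all PGK libraries and 1, 0 and 1 counts in the CAG libraries. A count of 0 allows up to 3 counts, or 0.131 to 0.140 CPM in the PGK libraries, so no fold is given. SYN1, or synapsin 1, which ties synaptic vesicles to the cytoskeleton, was detected in every library. It had 0.512, 0.584 and 0.920 CPM in PGK and 1.24, 1.14 and 1.51 CPM in CAG. All CAG libraries lay above all PGK libraries, at 1.30 ± 0.190 against 0.672 ± 0.218 CPM (SD, n = 3). The log2 fold change was 0.94 (SE 0.27), with an edgeR adjusted p of 0.00547. SYN1 shares 0.6% of its exon bases with ARAF on the other strand and 7.8% with AL009172.2 on the same strand, so its level is uncertain.

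Among genes of the microtubule cytoskeleton 5 of 8 were tested, with 3 higher, 1 lower and 1 not called. For comparison, 31.6% of all tested genes were higher and 30.4% lower, and 5 genes are too few to set against these shares. MAP2, which bundles microtubules in dendrites, had 1 count in each PGK library and 17, 20 and 16 counts in the CAG libraries. The ratio of CAG to PGK was 16.8 with a 95% exact binomial counting interval of 5.44 to 84.0, and the edgeR adjusted p was 1.93e-06. As MAP2 passed the filter only through its CAG libraries, this p is not independent support. MAP2 was nonetheless low in CAG, at 0.758 ± 0.0881 CPM (SD, n = 3). Its 50 neighbouring genes had a median log2 fold change of -0.07. MAPT, the axonal microtubule protein tau, was at 12.34, 12.001 and 12.09 CPM in PGK and 14.5, 14.4 and 13.6 CPM in CAG. The lines did not overlap but differed little, with a log2 fold change of 0.22 (SE 0.08) and an edgeR adjusted p of 0.0183. The MAPT call was lost without CAG replicate 1 (edgeR adjusted p = 0.0597), without CAG replicate 2 (0.0572) and with DESeq2 (DESeq2 adjusted p = 0.100), with 0.00819 to 0.100 over all alternatives. MAP1B, which acts in growing axons, was at 59.8 ± 4.96 CPM in PGK and 59.7 ± 3.58 CPM in CAG and was not called, with an edgeR adjusted p of 0.982.

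STMN3, a stathmin that destabilises microtubules, was at 149, 128 and 141 CPM in PGK and at 75.3, 76.2 and 69.8 CPM in CAG. Its CAG libraries held about 0.528 of the PGK level, a log2 fold change of -0.92 (SE 0.06) with an edgeR adjusted p of 2.14e-10. Its relative STMN2, an axon regeneration factor, had 0, 2 and 0 counts in PGK and 0, 1 and 1 in CAG. DCX, doublecortin of migrating neurons, had 2, 0 and 1 counts in PGK and 2, 0 and 0 in CAG. Neither STMN2 nor DCX exceeded 3 counts in any library, so no fold is given. TUBB2B, a beta-tubulin of the developing brain, rose by 0.34 (log2, SE 0.08), at 34.5 ± 4.37 CPM in PGK and 43.6 ± 1.64 CPM in CAG, with an edgeR adjusted p of 7.25e-04. Its near-identical neighbour TUBB2A also had a log2 fold change of 0.34 (SE 0.07), reads of the pair may be shared, and the genes around TUBB2B had a median of 0.30. TUBB2B also shares 7.9% of its exon bases with PSMG4 on the other strand.

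TUBB3, the beta-tubulin isotype most used to stain neurons, was close to 0 in the table, but its value is uncertain. It had 4 counts in each PGK library and 2, 2 and 3 in the CAG libraries. Counts in PGK were 1.80 times those in CAG per library size, with a counting interval of 0.654 to 5.41, which includes no difference, and TUBB3 did not pass the filter. In GENCODE 29, TUBB3 shares 35.8% of its exon bases with AC092143.1 on the same strand, and that row held 0 counts in all 6 libraries. The sources used here do not give how reads lying on both genes were counted, so the row of TUBB3 cannot be read as absence of its mRNA. For scale, the common isotype TUBB was at 2453 ± 29.3 CPM in PGK and 2399.6 ± 35.5 CPM in CAG.

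The growth cone and axon signalling genes included the largest decreases of the set. DPYSL3, a collapsin response mediator that acts on the growth cone cytoskeleton, was at 122, 119.6 and 111 CPM in PGK and 25.4, 24.4 and 23.7 CPM in CAG. The lines were far apart, with a PGK level 4.80-fold that of CAG, a log2 fold change of -2.26 (SE 0.06) and an edgeR adjusted p of 5.14e-16. Its 50 neighbouring genes had a median log2 fold change of -0.41. Its relative CRMP1 was at 0.583 ± 0.182 CPM in the PGK libraries against 0.676 ± 0.226 in the CAG libraries (SD, n = 3) and was not called, with an edgeR adjusted p of 0.631. GNAO1, the alpha subunit of the G protein Go, was at 12.11, 10.65 and 12.05 CPM in PGK and 3.99, 3.43 and 3.31 CPM in CAG. No CAG library reached the lowest PGK library, and the log2 fold change was -1.70 (SE 0.11) with an edgeR adjusted p of 2.63e-10. The genes around GNAO1 had a median of -0.01. GAP43, the growth-associated protein of regrowing axons, was at 1.70 ± 0.225 CPM in PGK and 1.66 ± 0.154 CPM in CAG and was not called, with an edgeR adjusted p of 0.889.

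**Figure D2:**
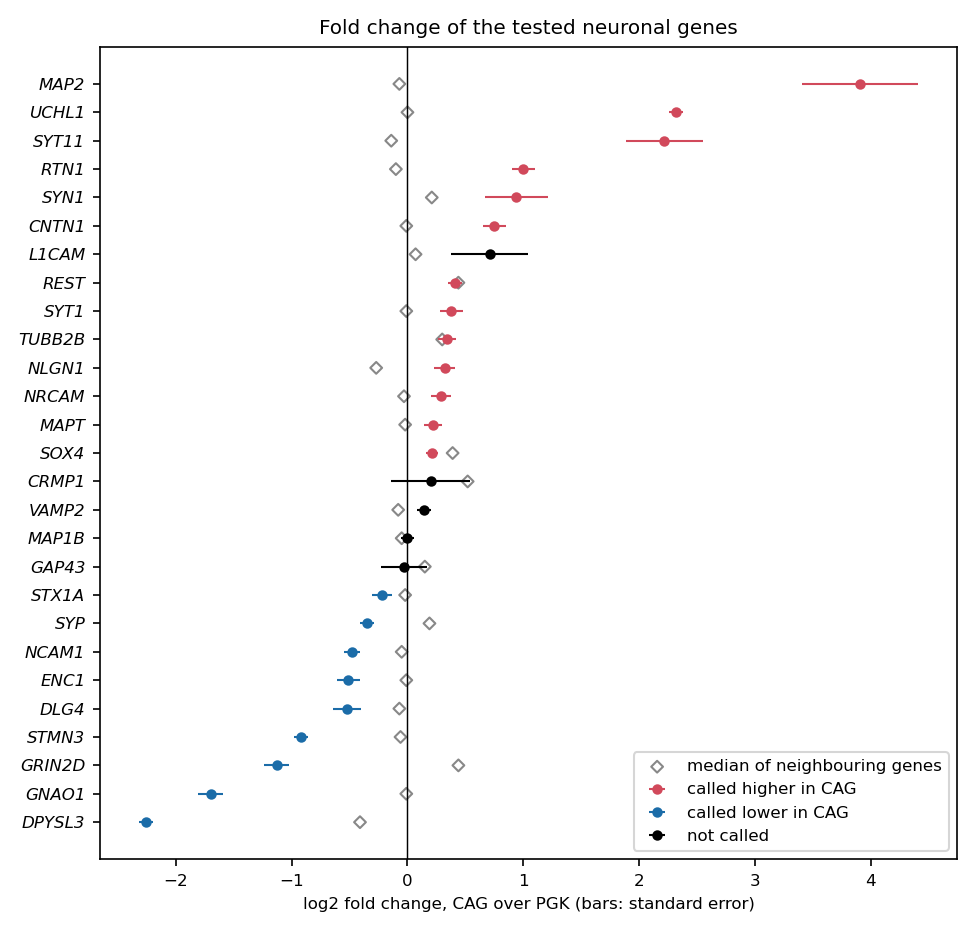
Log2 fold change (CAG over PGK) of the 27 tested neuronal genes with its standard error, coloured by call. Grey diamonds are the median log2 fold change of the neighbouring tested genes, up to 25 on each side of the gene. The fold changes of REST (0.41) and TUBB2B (0.34) lie near their neighbours' medians (0.44 and 0.30), while UCHL1 (2.32), GNAO1 (-1.70) and GRIN2D (-1.13) do not.

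Of the 5 adhesion genes 3 were higher, 1 was lower and 1 was not called. For comparison, 31.6% of all tested genes were higher and 30.4% lower, and 5 genes are too few to set against these shares. CNTN1, contactin 1 of the axon surface, was at 8.10, 10.6 and 7.76 CPM in PGK and 14.5, 14.2 and 15.9 CPM in CAG. The lines did not overlap, and the log2 fold change was 0.75 (SE 0.10) with an edgeR adjusted p of 5.69e-06. NLGN1, a neuroligin of excitatory synapses, rose by 0.32 (SE 0.09) and NRCAM, of the L1 family, by 0.29 (SE 0.09), each with an edgeR adjusted p of 0.00678. PGK replicate 2 reached CAG replicate 1 for NRCAM, and its call was lost without CAG replicate 2 (edgeR adjusted p = 0.05, with 3.34e-04 to 0.05 over all alternatives). NCAM1, the neural cell adhesion molecule, was lower at 48.5 ± 0.695 CPM in CAG against 67.6 ± 8.12 CPM in PGK, with a log2 fold change of -0.48 (SE 0.07) with an edgeR adjusted p of 1.11e-05. L1CAM, an adhesion molecule of axons, was below 1 CPM in every library, with a log2 fold change of 0.71 (SE 0.33) and an edgeR adjusted p of 0.0680. It was called without PGK replicate 2 (edgeR adjusted p = 0.0326) and without CAG replicate 3 (0.0362), with 0.0326 to 0.232 over all alternatives. L1CAM shares 6.0% of its exon bases with U52112.1 on the same strand and 4.9% with LCA10 on the other strand, so its level is uncertain.

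The machinery of the synaptic vesicle was mixed. SYT11, a synaptotagmin that does not sense calcium, had 5, 6 and 4 counts in PGK and 23, 28 and 24 in CAG. The lines did not overlap, at 0.226 ± 0.0476 and 1.07 ± 0.100 CPM (SD, n = 3). CAG was 4.75-fold higher, with a counting interval from 2.71 to 8.91 and an edgeR adjusted p of 1.10e-05. As SYT11 passed the filter only through its CAG libraries, this p is not independent support. SYT1, the calcium sensor of fast release, rose by 0.38 (SE 0.10) on the log2 scale, from 6.79 ± 0.620 to 8.85 ± 0.400 CPM (SD, n = 3), with an edgeR adjusted p of 0.00286. SYP, or synaptophysin, the membrane protein of synaptic vesicles, was at 54.4, 50.3 and 51.0 CPM in PGK and 42.2, 39.2 and 41.0 CPM in CAG. The lines did not overlap, with a log2 fold change of -0.35 (SE 0.06) and an edgeR adjusted p of 3.31e-05, while the genes around SYP had a median of 0.19.

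Of the 3 neuronal SNARE genes, whose proteins form the complex that fuses vesicles, STX1A and VAMP2 differed by little between the lines. Counts of SNAP25 were too few to tell. SNAP25 was low, with 10, 6 and 2 counts in PGK and 7, 4 and 10 in CAG, and the lines overlapped. CAG held 1.11 times the PGK level, with 0.563 to 2.21 as the counting interval. SNAP25 did not pass the filter, and with no filter its edgeR adjusted p was 0.850. The syntaxin STX1A was lower by a small amount, with a log2 fold change of -0.22 (SE 0.09) and an edgeR adjusted p of 0.0392. The STX1A call was lost when PGK replicate 1 (0.113), PGK replicate 3 (0.0612), CAG replicate 1 (0.0882) and CAG replicate 2 (0.140) were each left out, with scaling by library size only (0.0781) and with DESeq2 (0.120), each value an adjusted p in a range of 0.0294 to 0.140 over the edgeR, DESeq2 and limma-voom alternatives. STX1A shares 17.9% of its exon bases with BUD23 on the other strand. VAMP2 was at 31.6 ± 1.56 CPM in PGK and 34.9 ± 1.36 CPM in CAG and was not called, with an edgeR adjusted p of 0.0558. It was called without PGK replicate 3 (edgeR adjusted p = 0.0361), without CAG replicate 2 (0.0437), with the stricter filter (0.0477), with library size only (0.0252) and with the replicate number as a block (0.0256), with 0.0252 to 0.165 over all alternatives. VAMP2 shares 13.2% of its exon bases with AC129492.3 on the same strand, a row with 0 counts in all libraries, and its level is uncertain.

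Of the 3 genes listed as postsynaptic receptors and scaffold 2 were tested, and both were lower in CAG, as were 30.4% of all tested genes. NLGN1 of excitatory synapses, counted with the adhesion genes, was higher, so these 2 genes do not stand for the postsynaptic side. GRIN2D, a subunit of the NMDA glutamate receptor, was at 13.7, 11.2 and 11.1 CPM in PGK and 5.28, 5.42 and 5.75 CPM in CAG. The lines did not overlap, and the log2 fold change was -1.13 (SE 0.11) with an edgeR adjusted p of 3.27e-08. Its neighbouring genes went the other way, with a median log2 fold change of 0.44. DLG4, which encodes the scaffold PSD-95, was at 8.32 ± 1.30 CPM in the PGK libraries against 5.81 ± 0.0875 in the CAG libraries (SD, n = 3), which gave a log2 fold change of -0.52 (SE 0.12) with an edgeR adjusted p of 8.45e-04.

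Of the other neuron-enriched genes UCHL1 differed most. UCHL1 (ENSG00000154277, chromosome 4), a ubiquitin hydrolase abundant in neurons, was at 28.0, 26.6 and 26.8 CPM in PGK and 142, 127 and 138 CPM in CAG. The lines were far apart, with a log2 fold change of 2.32 (SE 0.06) with an edgeR adjusted p of 3.57e-16. The genes around UCHL1 had a median of 0.00. UCHL1 shares 5.9% of its exon bases with its antisense gene UCHL1-AS1, and without the strand setting reads of the pair cannot be told apart. RTN1, a reticulon of the endoplasmic reticulum, was at 5.26, 6.02 and 4.99 CPM in PGK and at 10.82, 10.85 and 10.99 CPM in CAG. Its CAG libraries lay close together and well above the PGK libraries, with a log2 fold change of 1.00 (SE 0.10) and an edgeR adjusted p of 6.66e-08. ENC1, an actin-associated protein of the nervous system, was lower by -0.51 (SE 0.10) on the log2 scale, with an edgeR adjusted p of 1.70e-04.

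The SOXC transcription factors SOX4 and SOX11, which act in young neurons, were at opposite ends of the range of levels. SOX4 had 215 ± 10.8 CPM in the PGK libraries against 249 ± 10.8 in the CAG libraries (SD, n = 3), which gave a log2 fold change of 0.21 (SE 0.05) with an edgeR adjusted p of 0.00129. The genes around SOX4 had a median of 0.39. SOX11 had 2, 1 and 2 counts in PGK and 0, 0 and 1 in CAG, too few for a fold.

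Compared per length, as mean CPM per kb of exon, the order of the genes differed between the lines. STMN3 was the highest of the 33 in PGK at 46.0 ± 3.48 CPM per kb, followed by SOX4 at 36.8 ± 1.84 and DPYSL3 at 16.4 ± 0.850. DPYSL3 and the next gene, TUBB2B at 15.7 ± 1.99, lay within their spread. In CAG, UCHL1 was first at 59.4 ± 3.40 CPM per kb, followed by SOX4 at 42.6 ± 1.84 and STMN3 at 24.3 ± 1.14. UCHL1 stood in place 5 in PGK, and DPYSL3 stood in place 10 in CAG. Among all tested genes, 69.1% had a level per kb below that of UCHL1 in PGK and 94.7% in CAG. For DPYSL3 the shares were 76.8% and 37.4%, and for GNAO1 17.2% and 6.52%.

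**Figure D3:**
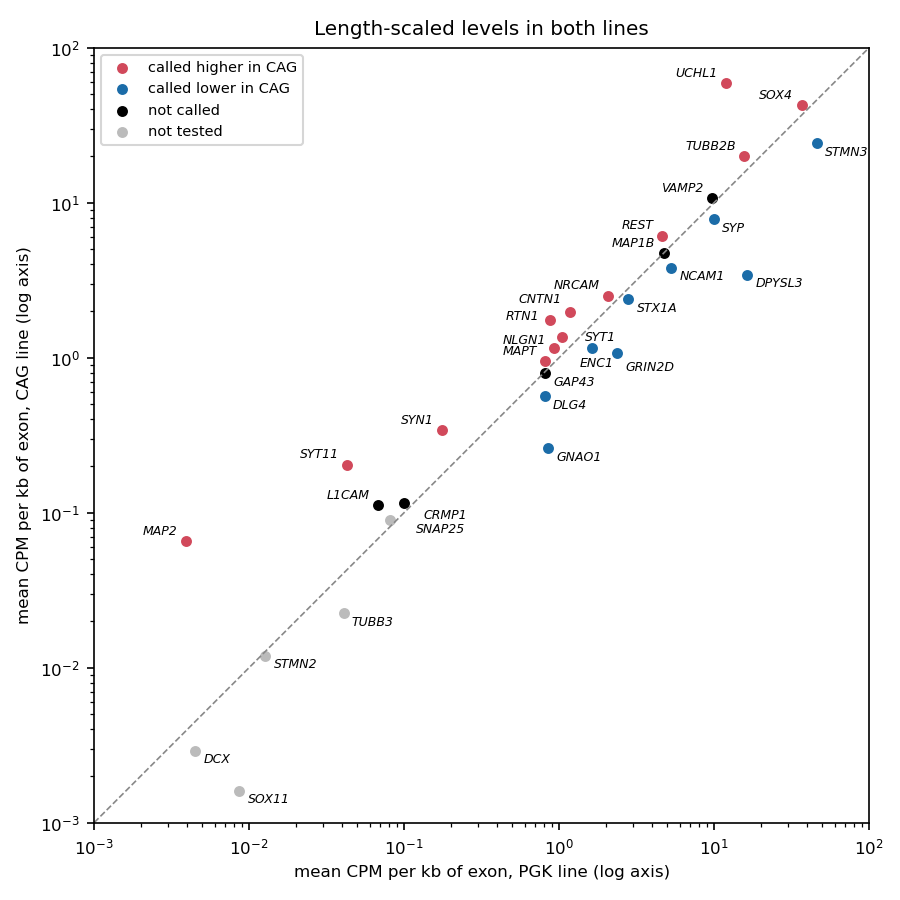
Mean CPM per kb of exon in the PGK line against the CAG line, both on log axes, for the 32 neuronal genes with a count in PGK (GRIA2 had 0 counts there); the dashed line marks equal levels. Genes range from below 0.01 to above 40 CPM per kb, with UCHL1 and MAP2 farthest above the line and DPYSL3 and GNAO1 among the farthest below it.

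Among the 22 called neuronal genes, 12 (54.5%) differed in the same direction as the median of their neighbours along the chromosome, against 72.8% of all called genes with such a median. Among genes with a call of at least 1.5-fold, neighbours' medians ran from -0.41 at DPYSL3 to 0.44 at GRIN2D. The part of the neighbourhood in these values was not tested.

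Genes of the companion lists written here as having risen, fallen or changed were called by edgeR. For comparison with each list, 62.0% of all tested genes were called, 31.6% higher and 30.4% lower. Among the genes described here, SCN2A, SYT5, SYT13, NEFM, MBP and EPCAM passed the filter through 1 line only. This selects for a difference, so their calls are not independent support. The cofactors of REST were examined from a companion list of 21 genes for its corepressors and turnover. Of these 20 were tested, 9 higher and 6 lower (75.0% called), with a median log2 fold change of 0.07. HDAC1, a histone deacetylase, rose by 0.63 (SE 0.05) from 252 ± 8.98 to 389.6 ± 11.7 CPM (SD, n = 3), and its neighbours had a median of 0.62. CTDSPL, a small phosphatase, rose by 0.75 (SE 0.06). RCOR2, a corepressor of the CoREST family, changed by -1.09 (SE 0.12), and KDM1A, the demethylase of the same complex, by -0.51 (SE 0.04) with neighbours at -0.63. SRRM4, a neuronal splicing factor that can switch REST to a truncated form, had 2 counts in PGK and 1 in CAG. Of 40 other genes described as REST targets, 25 were tested, 5 higher and 10 lower, with a median of -0.32. The called share was 60.0%, near the 62.0% of all tested genes, and the part of REST in these values was not tested. INA, the neuronal intermediate filament internexin, rose by 2.13 (SE 0.07) from 10.5 ± 0.549 to 45.8 ± 0.446 CPM. The sodium channel SCN2A had 17 counts in PGK and 72 in CAG, or 4.03-fold more in CAG (counting interval 2.35 to 7.29). RAB3C, a vesicle GTPase, changed by -1.63 (SE 0.16) and DISP2 by -1.40 (SE 0.13). INA had an edgeR adjusted p of 1.31e-14.

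Neuronal transcription and splicing factors also went both ways. Of 32 proneural and neuronal transcription factors 20 were tested, 4 higher and 11 lower (75.0% called), with a median log2 fold change of -0.30. POU3F3, a POU factor of the developing brain and kidney, fell from 61.9 ± 1.51 to 18.2 ± 1.67 CPM (SD, n = 3), and the HLH inhibitor ID3 changed by -0.99 (SE 0.05). EOMES rose by 0.72 (SE 0.18) and ID4 by 0.48 (SE 0.08). Of 15 neuronal RNA-binding proteins 11 were tested, 3 higher and 5 lower (72.7% called), with a median of -0.13. KHDRBS3 changed by -1.40 (SE 0.08) and SRRM3 by -1.19 (SE 0.16), PTBP2 rose by 0.47 (SE 0.06) and ELAVL2 by 0.20 (SE 0.08). The ELAVL2 call was lost with DESeq2 (DESeq2 adjusted p = 0.0775) and, in edgeR, without PGK replicate 1 (adjusted p = 0.122), PGK replicate 3 (0.103) or CAG replicate 2 (0.130), with 0.00316 to 0.130 over all alternatives. RBFOX3, the antigen NeuN of mature neurons and a gene chosen as a neuron marker, fell from 2.24 ± 0.241 to 0.983 ± 0.162 CPM, with an edgeR adjusted p of 7.69e-05. The neuron markers ELAVL3 and ELAVL4 had 4 and 1 counts in PGK and 0 counts in CAG.

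Relatives of the structural and synaptic genes also went both ways. Of 31 tested vesicle and SNARE genes 13 were higher and 10 lower (74.2% called), with a median log2 fold change of 0.04. VAMP8, a SNARE of late endosomes, rose from 0.762 ± 0.331 to 18.7 ± 1.66 CPM (SD, n = 3) and SYT13 by 1.98 (SE 0.32), while the dynamin DNM1 changed by -0.95 (SE 0.07). SYT5 had 99 counts in PGK and 2 in CAG, both in CAG replicate 2, which puts PGK 52.1-fold higher (counting interval 14 to 436). Of 16 tested microtubule and growth cone genes 7 were higher and 7 lower (87.5% called), with a median of -0.20. The doublecortin-like kinases DCLK1 and DCLK2 rose by 1.72 (SE 0.20) and 1.03 (SE 0.14). BASP1, a growth cone protein related in function to GAP43, fell from 46.9 ± 2.59 to 8.70 ± 0.862 CPM. NEFM, a neurofilament, had 1249 counts in PGK and 6 in CAG and shares 38.9% of its exon bases with an antisense gene, so its level is uncertain. Of 20 tested adhesion and receptor genes 7 were higher and 6 lower (65.0% called), with a median of 0.01. CNTNAP2, a neurexin-like protein, rose by 1.39 (SE 0.08) and NRXN2 by 0.89 (SE 0.26), a call that was lost with DESeq2 (DESeq2 adjusted p = 0.0528, with 0.00510 to 0.0528 over all alternatives). The NMDA receptor subunit GRIN2C changed by -2.42 (SE 0.22).

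Of the other tubulin isotypes 11 were tested, 2 higher and 3 lower, or 45.5% called against 62.0% of all tested genes, with a median of -0.01. TUBB2A rose by 0.34 (SE 0.07) and TUBA1B by 0.12 (SE 0.05), while TUBG1 changed by -0.36 (SE 0.05) and TUBB4A by -0.32 (SE 0.06). The TUBA1B call was lost in edgeR without PGK replicate 1 (adjusted p = 0.0722) or 2 (0.0555) and without CAG replicate 1 (0.0714), 2 (0.0777) or 3 (0.0674), with 0.00383 to 0.0777 over all alternatives. TUBA1B shares 36.6% of its exon bases with an antisense gene and TUBB4A overlaps a pair of them, so both are uncertain.

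**Figure D4:**
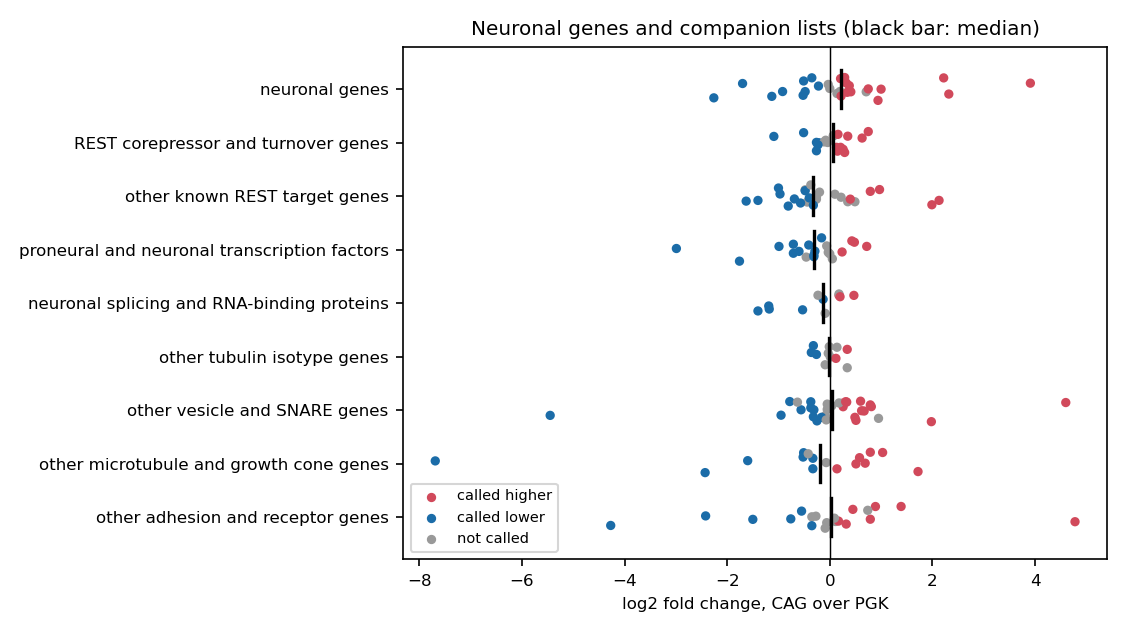
Log2 fold change (CAG over PGK) of the tested neuronal genes and of 8 companion lists, a point per gene coloured by call and a black bar at each median. Every list holds genes on both sides of 0, and the medians run from -0.32 for other known REST targets to 0.21 for the neuronal genes.

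Markers of other cell types were measured beside these genes. Of 16 astrocyte and oligodendrocyte markers 8 were tested, 5 higher and 1 lower (75.0% called, against 62.0% of all tested genes). The summed level of these markers was 221 to 237 CPM in the PGK libraries and 245 to 260 CPM in the CAG libraries. MBP, a myelin protein, had 1 count in PGK and 128 in CAG, S100B had 0 counts in all libraries, and CSPG4 rose by 1.82 (SE 0.18) while OLIG2 changed by -0.62 (SE 0.10). Of 18 adrenal and sympathetic markers 7 were tested, 1 higher and 3 lower (57.1% called). Their summed level was 119 to 128 CPM in PGK and 92.3 to 98.5 CPM in CAG. The catecholamine enzymes TH and DBH had 0 counts in all libraries, and GATA2 changed by -0.45 (SE 0.06) and CHGA by -0.81 (SE 0.16). Of 19 kidney and epithelial markers measured 11 were tested, 4 higher and 3 lower (63.6% called). Their summed level was 241 to 260 CPM in PGK and 236 to 253 CPM in CAG. SIX2 of the kidney progenitors was expressed at 47.1 and 30.4 CPM, UMOD and AQP2 of the mature tubule had 0 counts, and EPCAM had 2 counts in PGK and 78 in CAG. Fibroblast and matrix markers had 4 of 6 tested genes higher and 0 lower (66.7% called). Their summed level was 523 to 527 CPM in PGK and 698 to 722 CPM in CAG, most of it from VIM. Blood and immune markers summed to at most 3.69 CPM in any library, with 1 of 2 tested genes lower, CD68, which shares 81.7% of its exon bases with AC016876.2 on the same strand and is uncertain. The CD68 call (edgeR adjusted p = 0.0223) was lost with DESeq2 (DESeq2 adjusted p = 0.117) and in edgeR with PGK replicate 2 (0.0597), PGK replicate 3 (0.0512), CAG replicate 1 (0.0530) and CAG replicate 2 (0.0608) each left out, with 0.0189 to 0.117 over all alternatives. The part of all these markers in the differences of the neuronal genes was not tested.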

How the data were processed

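The table the authors deposited holds raw counts, 1 column for each of 6 libraries and 20169 Ensembl genes. The submitters' processing notes name featureCounts 2.0.3, HISAT2 2.2.1, Bowtie2 2.5.1 and cutadapt 4.6 as tools and hg19 as genome. Not given in the sources used here: the role of each tool, the annotation release, strandedness in counting and treatment of shared reads. Libraries were directional and polyA-selected per the labels. Column names gave the samples, and 823 rows had no symbol in GENCODE 29. GENCODE 29 is built on GRCh38, so it gave names, gene order, exon lengths and overlaps only.

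Genes were filtered with filterByExpr, scaled by TMM and compared by the robust quasi-likelihood F-test of edgeR 4.0.16 under R 4.3.3 (two-sided), adjusted over 13103 genes. Standard errors were derived as log2 fold change divided by the square root of F. Folds of genes with fewer than 20 counts in a line are count ratios with 95% exact binomial intervals; intervals and the floor of 3 counts (0.126 to 0.140 CPM) cover counting error only. Neighbours are the 25 tested genes on each side. Given in full were genes called at 1.5-fold or more, genes under 10 counts in a line, and REST, MAP2, MAPT, TUBB3, SYP and SNAP25; of each companion list, up to 2 called genes per direction of largest change with at least 1 CPM in the higher line; RBFOX3, ELAVL3 and ELAVL4 are further neuron markers; SRRM4, TUBB and VIM were chosen after their values were seen. Alternatives were no or a stricter filter, RLE or library size scaling, DESeq2 1.42.0, limma-voom (limma 3.58.1), a replicate block and leaving out each library. The analysis was tested on simulated counts. The genes and lists were chosen with earlier results of these data known. The listed genes LHX1, MARCKS, NEFL and SYN2 were not analysed here, and some listed genes are not reported here.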

Additional observations from a re-analysis of the deposited data

How the results depend on the processing

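The counts of neuronal genes moved little over the 13 alternatives, from 12 to 14 higher (12 to 14 when a library was left out) and from 8 to 9 lower (8 to 9). REST stayed higher and called, with a log2 fold change of 0.37 to 0.46. The median log2 fold change of the neuronal genes was 0.14 with no low-count filter, where 6 more genes entered, and 0.18 to 0.25 when a library was left out. Genes without a call changed sign: MAP1B (-0.05 to 0.07 when a library was left out), at 0.00 with the stricter filter, 0.03 with library size only, 0.07 without PGK replicate 2 and 0.04 without CAG replicate 1; GAP43 (-0.11 to 0.07), at 0.07 without PGK replicate 1 and 0.03 without CAG replicate 3; and CRMP1, at -0.04 without PGK replicate 1 and -0.10 without CAG replicate 1. The cause was not tested. Of 27 tested neuronal genes 19 kept their direction and their side of the threshold under every alternative that gave a value. Whether same-numbered libraries share a culture or day is not stated and was not tested. The correlations of their deviations were 0.108, 0.103 and 0.0131 for replicates 1, 2 and 3, against -0.111 to 0.00988 between libraries of unlike number. Every library correlated best with its own number, but for replicate 3 only by little. With the replicate number as a block 14 neuronal genes were higher and 9 lower, VAMP2 being added (edgeR adjusted p = 0.0256). Over all tested genes 8861 were called with this block, against 8125 in the main fit. Depth limits the genes below about 0.14 CPM, which is 3 counts.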
